A study of Mus musculus with 84 samples.

Results

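The genes described here carry out fatty acid oxidation and ketone body handling or are classical targets of PPARalpha in mouse liver. They were chosen by name, as the 37 listed symbols whose Ensembl identifiers were found among the 48794 gene identifiers of the expression tables. This rule uses no expression value, but the list was drawn up with earlier results of these data known. All 37 had a row in both tissues. In liver 37 of 37 passed the filter on low values, and in epididymal white adipose tissue (eWAT) 36 of 37 did, the exception being Cyp4a31. The animals were male C57BL/6J mice made obese on a diet with 60% of its energy as fat (diet-induced obese, DIO), single-housed and 22 weeks old when dosing began. They were injected subcutaneously once daily for 30 days with vehicle, with BI 456906 at doses of 3, 10, 20 and 30 nmol/kg, or with semaglutide at 20 and 100 nmol/kg. BI 456906 is a peptide that activates the GLP-1 and the glucagon receptor, and semaglutide is a peptide that activates the GLP-1 receptor alone. Every group, vehicle included, was fed the high-fat diet before and during dosing, so no lean reference is part of these comparisons. RNA of 6 mice per group was sequenced from each tissue, giving 42 liver and 42 eWAT libraries.

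Fatty acids are burned in the liver along several routes. Long chains are activated to acyl-CoA, carried into the mitochondrion as carnitine esters and shortened by beta-oxidation, and the acetyl-CoA that is formed can be turned into ketone bodies for other organs. Very long and branched chains are first shortened in peroxisomes, and microsomal cytochromes of the Cyp4a family oxidise the far end of the chain. PPARalpha, a nuclear receptor that senses fatty acids, drives the transcription of genes in all these routes during fasting, and Cyp4a14, Acot1 and Ehhadh are among its most inducible targets in mouse liver.

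The recovered depth was 21676902 to 53869104 reads in liver and 37573004 to 53996914 in eWAT. The correlation of a library with the others of its group was on average 0.979 to 0.990 in liver and 0.944 to 0.983 in eWAT. Levels are given as TPM, a share of all transcripts of a library that takes gene length into account, as mean ± SD where not stated otherwise. Differences are log2 fold changes ± standard error on the scaled read counts, from limma/voom with one fit per tissue. A gene was called where the false discovery rate (FDR), adjusted across the whole table, did not exceed 0.05. In the liver the defining hepatocyte markers were present in all libraries, their sum over 10 genes having a median of 115888 TPM in vehicle and 135500 TPM at 30 nmol/kg BI 456906. At that dose 6 of the 10 were called higher and 3 lower. The 8 adipocyte markers summed to a median of 198 TPM in vehicle liver and 74.4 TPM at that dose, where Retn was at 0 in every library, and all 4 that were tested were lower. Both lists moved with treatment, and their part in the results below was not tested. In bulk tissue, fewer cells of one type cannot be told apart from less RNA per cell.

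In liver the members moved in both directions, also within the peroxisomal and the microsomal route. At 30 nmol/kg BI 456906, 9 of the 37 genes were higher than in vehicle and 14 were lower. Over all 15964 genes tested the shares were 28.9% higher and 29.9% lower, so the share of members that changed was close to that of the whole transcriptome. The count of changed members rose from 5 at 3 nmol/kg (1 higher, 4 lower, background 8.46% and 4.93%) to 16 at 10 nmol/kg (2 higher, 14 lower, background 19.4% and 18.1%) and 19 at 20 nmol/kg (7 higher, 12 lower, background 23% and 22.9%). With semaglutide 19 members changed at 20 nmol/kg (5 higher, 14 lower, background 23% and 23.5%) and 21 at 100 nmol/kg (9 higher, 12 lower, background 24% and 24.1%). The 14 lower members at 10 nmol/kg BI 456906 and at 20 nmol/kg semaglutide were a larger share than among all genes, which was not tested. Without library 81 of the semaglutide 100 nmol/kg group 5 in place of 9 were higher there. The median log2 fold change of the 37 genes at 30 nmol/kg was -0.040, beside -0.034 for all genes. Large changes went one way. Ppara, Ehhadh, Cyp4a14, Cyp4a31 and Acot1 rose by 1 or more on the log2 scale at 30 nmol/kg (background 5.99%), whereas the deepest fall was that of Bdh1, of -0.90. On the scaled log2 counts all mice at that dose lay above all vehicle mice for 5 genes and below them for 13, against 17.8% and 16.2% of all genes. In TPM this was so for 9 and 12 genes, against 18.6% and 10.8%.

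**Figure D1:**
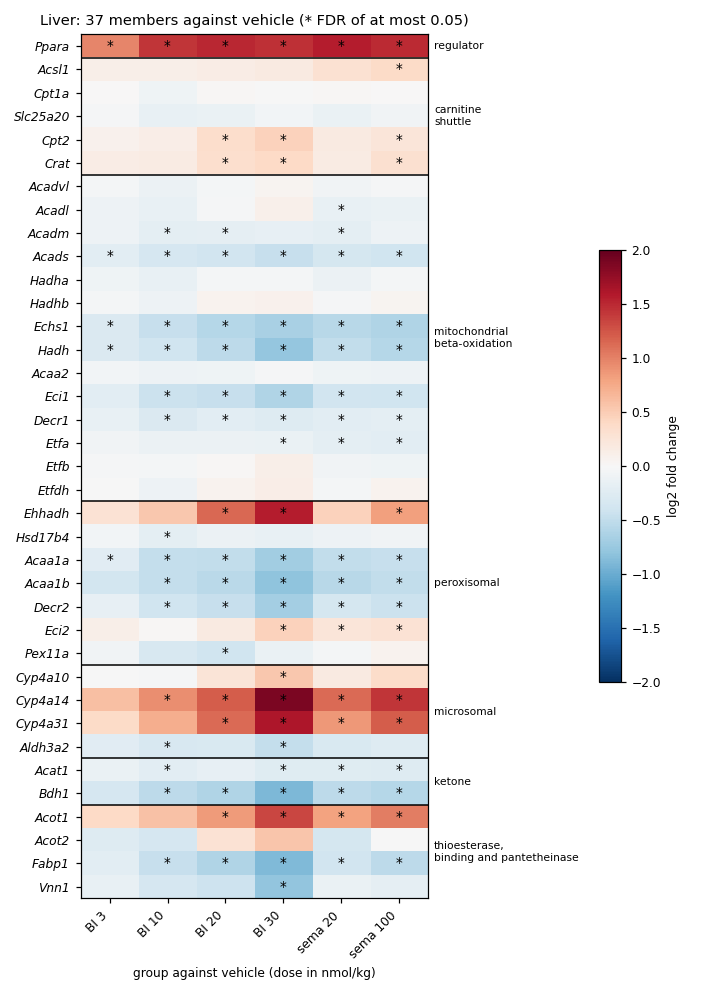
Log2 fold change against vehicle of the 37 genes (rows, grouped by route) in the 6 treated liver groups of 6 mice each (columns, dose in nmol/kg), with an asterisk where the FDR was at most 0.05. The red rows are Ppara, Ehhadh, Cyp4a14, Cyp4a31 and Acot1, and the blue rows include Hadh, Echs1, Acaa1a, Bdh1 and Fabp1.

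Ppara itself, the gene of the receptor (chr15:85734983-85802819, + strand, GRCm38), was the only one of the 37 called higher at the lowest dose in the fit of all groups. With only vehicle and 3 nmol/kg in the fit limma/voom called 0 of the 37 at that dose (5 higher and 10 lower at an unadjusted p below 0.05), and Ppara had an FDR of 0.174, whereas in the fits of all groups edgeR and DESeq2 called 5 of them, as limma/voom did. Its lowest, median and highest levels were 30.4, 46.2 and 105 TPM in vehicle, 31.5, 104 and 136 TPM at 3 nmol/kg, then 93.3, 110.2 and 159 TPM at the 10 nmol/kg dose of BI 456906. They were 99, 116 and 146 TPM at 30 nmol/kg, 115, 126 and 142 TPM with semaglutide at 20 nmol/kg, then 91.7, 129.8 and 162.7 TPM at 100 nmol/kg. One vehicle mouse, library 44, reached 105 TPM and so lay within the treated range, while the other 5 stayed at or below 59.9 TPM. At 3 nmol/kg 2 of the 6 mice, at 31.5 and 58.1 TPM, were in the range of those 5. The log2 fold change was 0.98 ± 0.26 (FDR = 0.0109) at 3 nmol/kg, 1.43 ± 0.26 (FDR = 4.08e-05) at 10 nmol/kg and 1.46 ± 0.26 (FDR = 9.77e-06) at 30 nmol/kg. Semaglutide gave 1.58 ± 0.26 (FDR = 6.90e-06) at 20 nmol/kg and 1.49 ± 0.26 (FDR = 1.54e-05) at 100 nmol/kg. The fold changes of the 5 groups from 10 nmol/kg BI 456906 on lay close together, with standard errors larger than the gaps between them.

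**Figure D2:**
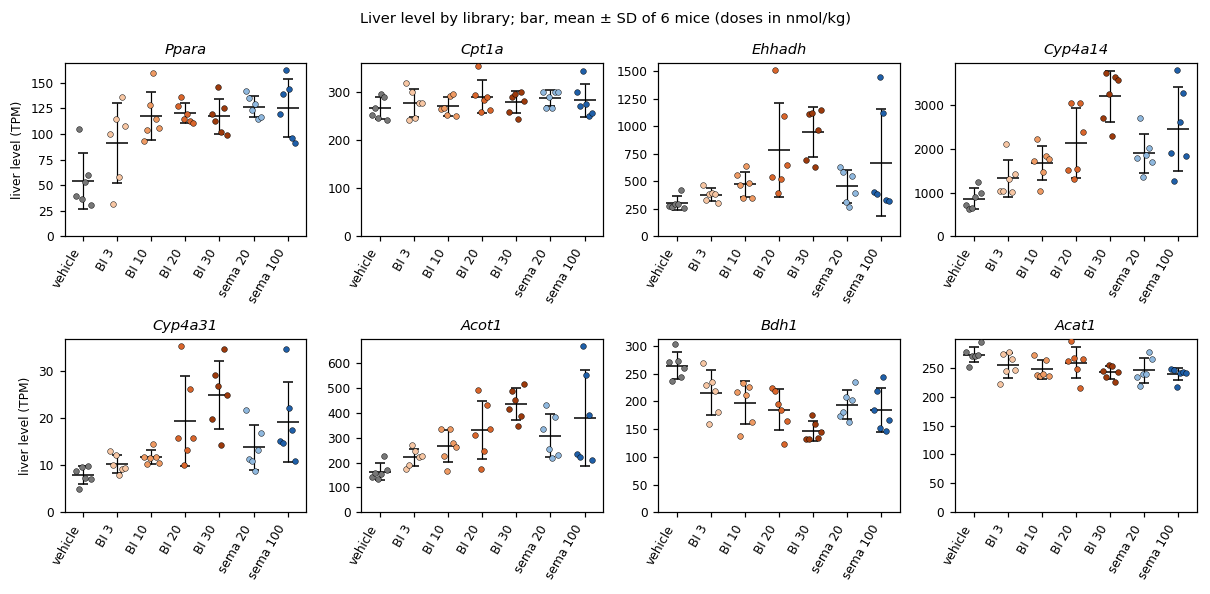
Liver level in TPM of 8 genes in each of the 7 groups, 1 point per mouse, with the mean and SD of 6 mice as bars. The mean of Ppara was 117 to 127 TPM in the 5 groups from BI 456906 10 nmol/kg on, the groups overlapped for Cpt1a, Ehhadh had 2 high mice each at BI 456906 20 and semaglutide 100 nmol/kg, and Bdh1 was lowest at BI 456906 30 nmol/kg.

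Among the genes that bring fatty acids into the mitochondrion, the rate-controlling carnitine palmitoyltransferase Cpt1a showed no detectable change. Its lowest, median and highest levels were 243, 260.0 and 297 TPM in vehicle, 244, 286 and 301 TPM at 30 nmol/kg BI 456906 and 249.8, 273 and 345 TPM at 100 nmol/kg semaglutide. The groups overlapped throughout. The difference from vehicle was -0.0051 with an interval of -0.18 to 0.17 at 30 nmol/kg BI 456906, and 0.013 with an interval of -0.16 to 0.19 at 100 nmol/kg semaglutide, so changes beyond about 0.2 in either direction lie outside these 95% intervals. Cpt2, which converts the carnitine ester back to acyl-CoA inside the mitochondrion, rose from 112 ± 7.78 TPM (mean and SD, n = 6) to 164 ± 14.3 TPM at 30 nmol/kg BI 456906, a log2 fold change of 0.47 ± 0.089 (FDR = 2.46e-05), with no overlap between the mice of both groups. At 100 nmol/kg semaglutide Cpt2 reached 139 ± 17.8 TPM (0.24 ± 0.089, FDR = 0.0268). Crat, the carnitine acetyltransferase that buffers acetyl-CoA, rose by 0.40 ± 0.12 (FDR = 0.0032) and 0.32 ± 0.12 (FDR = 0.0229) in the same groups. Acsl1, which activates long-chain fatty acids, passed the test only with semaglutide at 100 nmol/kg (0.39 ± 0.13, FDR = 0.0168), and had 0.19 ± 0.13 (FDR = 0.235) at 30 nmol/kg BI 456906. The carnitine carrier Slc25a20 had -0.061 and -0.077 and was not called. The summed level of these 5 genes had a lowest, median and highest value of 1253, 1435 and 1645 TPM in vehicle and 1489, 1769 and 1831 TPM at 30 nmol/kg BI 456906.

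The calls against vehicle among the 14 genes of the mitochondrial beta-oxidation spiral were falls in all 6 treated liver groups. With BI 456906 at 30 nmol/kg 6 were lower (background 29.9% of all genes) and the other 8 did not pass the test. The falls concerned the short-chain acyl-CoA dehydrogenase Acads, the short-chain enoyl-CoA hydratase Echs1, the short-chain 3-hydroxyacyl-CoA dehydrogenase Hadh, the auxiliary enzymes Eci1 and Decr1, which prepare unsaturated chains, and Etfa, a subunit of the flavoprotein that takes up the electrons. Hadh went from 394, 415 and 433 TPM (lowest, median and highest) in vehicle to 206, 253 and 313 TPM, and Echs1 from 255, 273 and 287 TPM to 164, 177 and 201 TPM. For both genes every treated mouse was below every vehicle mouse. The changes were -0.77 ± 0.096 (FDR = 1.45e-08) for Hadh and -0.65 ± 0.078 (FDR = 6.17e-09) for Echs1. Eci1 changed by -0.59 ± 0.083 (FDR = 1.29e-07) and Acads by -0.47 ± 0.055 (FDR = 3.90e-09), again without overlap, and Decr1 and Etfa by -0.25 (FDR = 0.00338) and -0.13 (FDR = 0.0465).

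The enzymes for long and medium chains did not pass the test at the highest dose. Acadvl, Acadl and Acadm, the very long-, long- and medium-chain acyl-CoA dehydrogenases, had log2 fold changes of 0.060, 0.11 and -0.16 at 30 nmol/kg BI 456906, none called, the last with an FDR of 0.0507. Acadm was called lower at 10 nmol/kg (-0.19, FDR = 0.0294) and 20 nmol/kg (-0.18, FDR = 0.0304) and with semaglutide at 20 nmol/kg (-0.20, FDR = 0.0185), where Acadl was lower as well (-0.15, FDR = 0.0429). Neither subunit of the trifunctional protein was called, with -0.040 (interval -0.19 to 0.12) for Hadha and 0.088 (interval -0.087 to 0.26) for Hadhb, and the thiolase Acaa2 was not called either, with -0.020 (interval -0.14 to 0.096). Etfb and Etfdh, the other genes of electron transfer from beta-oxidation, had 0.11 and 0.14. Semaglutide at 100 nmol/kg gave lower calls for the same number of genes of the spiral, 6 of 14 (background 24.1% of all genes). The changes were -0.39 for Acads, -0.60 for Echs1, -0.58 for Hadh, -0.40 for Eci1, -0.19 for Decr1 and -0.21 for Etfa. Falls in Acads, Echs1 and Hadh were already called at 3 nmol/kg BI 456906, at -0.21 (FDR = 0.00993), -0.29 (FDR = 0.0136) and -0.29 (FDR = 0.0418). These calls were lost with only the 2 groups in the fit (FDR of 0.103 to 0.106), and that of Hadh also without a filter on low values. Acaa2 was the most abundant of the 14, at 1015 ± 26.1 TPM in vehicle and 1055 ± 31 TPM at 30 nmol/kg. The summed level of the spiral had a lowest, median and highest value of 5036, 5212 and 5321 TPM in vehicle and 4793, 5080.0 and 5167 TPM at 30 nmol/kg.

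The peroxisomal genes moved in opposite directions. Ehhadh (chr16:21761287-21787807, - strand), the bifunctional hydratase and dehydrogenase of the peroxisomal pathway, had a lowest, median and highest level of 255, 280.3 and 423 TPM in vehicle, 304, 386 and 467 TPM at 3 nmol/kg, 347, 473 and 639 TPM at the 10 nmol/kg dose, then 393, 594 and 1510.2 TPM at 20 nmol/kg BI 456906. It was at 630.1, 1043 and 1148 TPM at 30 nmol/kg, and all 6 mice were above all 6 of vehicle. The log2 fold change was 1.14 ± 0.31 (FDR = 0.00232) at 20 nmol/kg and 1.57 ± 0.31 (FDR = 4.10e-05) at 30 nmol/kg, and it was not called at 3 or 10 nmol/kg. Semaglutide gave 265, 472 and 626 TPM at 20 nmol/kg, which was not called, and 324, 395 and 1453 TPM at 100 nmol/kg. The change at 100 nmol/kg, 0.82 ± 0.31 (FDR = 0.0246), rested on 2 mice at 1125 and 1453 TPM, the other 4 lying at 324 to 405 TPM. Of the vehicle mice 1, library 47, was at 423 TPM and the other 5 were at 255 to 291 TPM. Without library 81 it was 0.53 (FDR = 0.127) and without library 82 it was 0.64 (FDR = 0.0879), so the call was lost in both cases. Eci2, a peroxisomal enoyl-CoA isomerase, rose by 0.46 ± 0.086 (FDR = 2.20e-05) at 30 nmol/kg BI 456906 and 0.28 ± 0.086 (FDR = 0.00649) at 100 nmol/kg semaglutide.

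Both peroxisomal thiolases fell. Acaa1b, the most abundant peroxisomal gene of the list, went from 2353, 2757 and 3048 TPM in vehicle to 1323, 1733 and 1831 TPM at 30 nmol/kg BI 456906 (-0.80 ± 0.15, FDR = 1.23e-05), and Acaa1a from 303, 318 and 338 TPM to 190.4, 207 and 221 TPM (-0.69 ± 0.074, FDR = 5.55e-10). Decr2, the peroxisomal dienoyl-CoA reductase, went from 211, 225 and 244 TPM to 135, 148 and 169 TPM (-0.68 ± 0.086, FDR = 1.66e-08). None of the treated mice reached the vehicle range for these 3 genes. At 100 nmol/kg semaglutide the changes were -0.49 for Acaa1b, -0.47 for Acaa1a and -0.43 for Decr2, all called. Acaa1a was called lower already at 3 nmol/kg BI 456906, by 0.23 on the log2 scale (FDR = 0.037). With only the 2 groups in the fit its FDR was 0.103, and the call was also lost without a filter. The D-bifunctional protein gene Hsd17b4 had -0.15 (FDR = 0.0709) and the peroxisome proliferation gene Pex11a -0.13 (FDR = 0.484) at 30 nmol/kg, neither of them called. Acaa1a and Acaa1b both lie on chromosome 9, and their longest transcripts are 96.6% identical over 1428 aligned bases. How reads shared by both were assigned is not given in the sources used here, so their separate values are uncertain. Of the 37 genes 13 also overlap a gene on the other strand, namely Acsl1, Crat, Acadvl, Acadl, Hadha, Echs1, Etfdh, Ehhadh, Acaa1a, Acaa1b, Eci2, Pex11a and Bdh1, and whether the counting used strand is not given either.

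Of the 4 microsomal genes 3 were higher at 30 nmol/kg BI 456906 (background 28.9% of all genes). Cyp4a14 (chr4:115486200-115496142, - strand), a fatty acid omega-hydroxylase, had a lowest, median and highest level of 627, 808 and 1252 TPM in vehicle, 1009.6, 1178 and 2116 TPM at 3 nmol/kg, 1043, 1749.7 and 2234 TPM at the 10 nmol/kg dose, 1301, 1962 and 3058 TPM at 20 nmol/kg, then 2299.7, 3426 and 3737 TPM at 30 nmol/kg BI 456906. In TPM, every mouse from 20 nmol/kg on exceeded every vehicle mouse. It was called from 10 nmol/kg, at 0.93 ± 0.24 (FDR = 0.00244), and at 30 nmol/kg it had the largest change of the 37 genes, 1.89 ± 0.25 (FDR = 3.18e-08). With semaglutide it was at 1363, 1822 and 2702 TPM at 20 nmol/kg (1.14 ± 0.24, FDR = 0.000207) and 1264, 2267 and 3813 TPM at 100 nmol/kg (1.43 ± 0.24, FDR = 9.10e-06). Cyp4a31 (chr4:115563649-115579015, + strand), a low-abundance member of the same family, went from 4.89, 7.98 and 9.81 TPM in vehicle to 14.3, 25.9 and 34.8 TPM at 30 nmol/kg BI 456906 (1.61 ± 0.29, FDR = 8.68e-06) without overlap, and to 10.9, 16.3 and 34.7 TPM at 100 nmol/kg semaglutide (1.21 ± 0.29, FDR = 0.000783), where the highest value was from library 81. Cyp4a10, the third family member, rose less, from 664, 968 and 1181 TPM to 1181, 1364 and 1688 TPM (0.54 ± 0.19, FDR = 0.0152), and was not called with semaglutide (0.37, FDR = 0.108 at 100 nmol/kg). The aldehyde dehydrogenase Aldh3a2, which takes the omega-oxidised product further, went from 381, 449 and 511 TPM to 287, 328 and 368 TPM (-0.48 ± 0.13, FDR = 0.00154). The 3 Cyp4a genes lie in one cluster on chromosome 4. The longest transcripts of Cyp4a10 and Cyp4a31 are 96.0% identical over 1593 aligned bases, and Cyp4a14 is 76.8% identical to Cyp4a10. The value of the far less abundant Cyp4a31 is therefore uncertain, since reads shared with Cyp4a10 may be split between them.

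Both ketone body genes among the 37 fell at the highest doses. Acat1, the mitochondrial acetoacetyl-CoA thiolase, had a lowest, median and highest level of 252, 272 and 294 TPM in vehicle, 226, 243 and 255 TPM at 30 nmol/kg BI 456906 and 217, 241 and 247 TPM at 100 nmol/kg semaglutide. The changes were -0.24 ± 0.071 (FDR = 0.00338) and -0.25 ± 0.071 (FDR = 0.00341). Bdh1 (chr16:31422280-31458901, + strand), the dehydrogenase that turns acetoacetate into beta-hydroxybutyrate, was at 236, 266 and 304 TPM in vehicle, 159.6, 225 and 270.2 TPM at 3 nmol/kg, 138, 214 and 233 TPM at the 10 nmol/kg dose, 123, 190.1 and 224 TPM at 20 nmol/kg, then 132, 139 and 175 TPM at 30 nmol/kg BI 456906. From 10 nmol/kg on no treated mouse reached the lowest vehicle mouse, and the spread was wider at 3, 10 and 20 than at 30 nmol/kg. The log2 fold changes were -0.52 ± 0.14 (FDR = 0.00362) at 10 nmol/kg and -0.90 ± 0.14 (FDR = 8.44e-07) at 30 nmol/kg. Semaglutide gave -0.52 ± 0.14 (FDR = 0.0029) at 20 nmol/kg and -0.57 ± 0.14 (FDR = 0.000961) at 100 nmol/kg.

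Among the remaining PPARalpha targets, Acot1, a cytosolic acyl-CoA thioesterase (chr12:84009490-84018371, + strand), was raised. Its lowest, median and highest levels were 135, 154 and 227 TPM in vehicle, 166, 271 and 337 TPM at the 10 nmol/kg dose, 172, 323 and 491 TPM at 20 nmol/kg, then 347, 434 and 518 TPM at 30 nmol/kg BI 456906. All mice at 30 nmol/kg were above all vehicle mice. The change was 0.85 ± 0.25 (FDR = 0.00467) at 20 nmol/kg and 1.34 ± 0.25 (FDR = 1.91e-05) at 30 nmol/kg, and with semaglutide 0.80 ± 0.25 (FDR = 0.00776) and 1.02 ± 0.25 (FDR = 0.00089) at 20 and 100 nmol/kg. Acot2, its mitochondrial counterpart and neighbour on chromosome 12, had 0.56 ± 0.32 (FDR = 0.137) at 30 nmol/kg and did not pass the test, with levels of 18.9, 32.2 and 38 TPM in vehicle and 34.5, 44.8 and 69.1 TPM at that dose. The longest transcripts of both are 93.8% identical over 1337 aligned bases. Fabp1, the liver fatty acid binding protein and the most abundant of the 37 transcripts, fell from 10157, 11966 and 13912 TPM in vehicle to 5990.4, 6729.5 and 7706 TPM at 30 nmol/kg (-0.88 ± 0.13, FDR = 2.14e-07), again without overlap, and was at 6841, 8622 and 11827 TPM with semaglutide at 100 nmol/kg (-0.52 ± 0.13, FDR = 0.000908). Vnn1, a pantetheinase, went from 79.4, 108 and 117 TPM to 48.5, 61 and 77.2 TPM (-0.79 ± 0.18, FDR = 0.000234), and was at 68.6, 87.5 and 164 TPM with semaglutide at 100 nmol/kg (-0.17, FDR = 0.443).

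PPARalpha binds DNA with a partner receptor at direct repeats of 2 hexamers separated by 1 base. The 250 bases before the RefSeq start of each gene (GRCm38.p6) were searched on both strands for such a repeat, 2 copies of AGGNCA in the same direction with any 1 base between them, and for the half-site AGGTCA, which can overlap it. Of the 37 genes 28 had an entry, and those without one were Crat, Acaa2, Decr1, Hsd17b4, Cyp4a10, Cyp4a14, Cyp4a31, Acat1 and Vnn1. The repeat was found in 1 of the 28, Fabp1, and in 0.338% of all 32851 promoters. The half-site was found in 5 of the 28, Cpt1a, Acadvl, Acadm, Echs1 and Fabp1, and in 14% of all promoters. The cAMP response element TGACGTCA, searched as a comparison, was in none of the 28 and in 1.55% of all promoters. The 3 windows are shown because they belong to the gene with the repeat and to 2 of the genes with large changes. None reaches into the GENCODE gene. They are written in the direction of transcription, and have the repeat, here on the reverse strand, in capitals. The Fabp1 window is chr6:71199629-71199826, + strand, the Ehhadh window chr16:21787835-21788084, - strand and the Acot1 window chr12:84009252-84009489, + strand, all of GRCm38.p6.
Fabp1: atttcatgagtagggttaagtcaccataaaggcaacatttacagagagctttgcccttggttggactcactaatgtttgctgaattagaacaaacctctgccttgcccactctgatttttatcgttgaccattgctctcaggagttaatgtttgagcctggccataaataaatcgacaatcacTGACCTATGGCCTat
Ehhadh: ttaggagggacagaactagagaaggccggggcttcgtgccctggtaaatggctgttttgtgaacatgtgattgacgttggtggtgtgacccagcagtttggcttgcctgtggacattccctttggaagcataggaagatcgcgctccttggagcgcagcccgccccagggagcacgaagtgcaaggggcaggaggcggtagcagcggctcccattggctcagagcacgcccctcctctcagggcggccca
Acot1: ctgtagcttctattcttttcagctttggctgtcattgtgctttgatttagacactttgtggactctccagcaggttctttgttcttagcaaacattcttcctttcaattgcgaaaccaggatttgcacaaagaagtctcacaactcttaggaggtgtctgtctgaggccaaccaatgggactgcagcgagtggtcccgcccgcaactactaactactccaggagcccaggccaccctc
The repeat of Fabp1 begins 15 bases before the GENCODE start of the gene. A match of letters is a description and not a bound site, and the windows leave out more distant sequence. For the other genes the search says only that these letters are not in these windows.

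In some groups the same mice were high for several genes, induced ones and others. At 20 nmol/kg BI 456906 the 2 highest libraries for Ehhadh were 62 and 65, with 1510 and 1096 TPM beside at most 646 TPM in the other 4. These 2 libraries were also the 2 highest of their group for Acot1, Acot2, Cyp4a10, Cyp4a14, Cyp4a31 and Pex11a, and for 15 of the 37 genes in all, Ehhadh included. With semaglutide at 100 nmol/kg the pair was 81 and 82, at 1453 and 1125 TPM beside at most 405 TPM, and it led its group for 17 of the 37 genes, among them Ppara, Acot1, Acot2, Cyp4a31, Eci2 and Cpt2. Library 81 had 30040261 reads, fewer than most liver libraries. Its mean correlation with its group, 0.979, was the lowest in liver. The 2 highest mice for Ehhadh led for 10 genes in vehicle, 11 at 3, 13 at 10 and 4 at 30 nmol/kg BI 456906, and 4 at 20 nmol/kg semaglutide. The counts are descriptions of mice ranked by 1 gene and carry no test.

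The dose response of BI 456906 was summarised as the slope of the group means from vehicle to 30 nmol/kg, per 10 nmol/kg. It was positive and called for 12 genes and negative and called for 13, against 29.3% and 29.6% of all genes. The steepest rises were those of Cyp4a14 (0.54 ± 0.071, FDR = 2.54e-08), Ehhadh (0.51 ± 0.089, FDR = 5.35e-06) and Cyp4a31 (0.50 ± 0.079, FDR = 1.04e-06), followed by Acot1 (0.40) and Ppara (0.38). Fabp1 (-0.27 ± 0.036, FDR = 5.07e-08) and Bdh1 (-0.25 ± 0.040, FDR = 9.65e-07) had the steepest falls. Acot2, Acadl and Etfdh, none of them called at 30 nmol/kg alone, had small positive slopes of 0.25 (FDR = 0.0204), 0.049 (FDR = 0.0182) and 0.052 (FDR = 0.0241). The slope of Cpt1a was 0.0041 with an interval of -0.046 to 0.054.

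Both peptides were also compared with each other. An equal dose in nmol/kg does not match them for plasma exposure or for activity at the GLP-1 receptor. The comparison therefore cannot isolate the effect of added glucagon receptor activity, which was not tested. At the equal dose of 20 nmol/kg limma/voom called 0 of the 37 genes, while 0.908% of all genes were higher and 1.51% lower. At an unadjusted p below 0.05 Ehhadh was higher (0.68, FDR = 0.283) and Pex11a lower (-0.36, FDR = 0.247), which makes 1 in each direction, and edgeR (quasi-likelihood) as well as DESeq2 also called 0. The intervals of the difference, BI 456906 minus semaglutide, were -0.61 to 0.48 for Ppara, 0.056 to 1.31 for Ehhadh, -0.44 to 0.57 for Cyp4a14, -0.46 to 0.56 for Acot1, -0.37 to 0.19 for Bdh1 and -0.17 to 0.17 for Cpt1a. For Cpt1a, Acads (-0.14 to 0.080) and Echs1 (-0.18 to 0.14) a difference above 0.2 is thus outside the interval, whereas for the induced genes a difference of 0.4 or more in at least 1 direction is within it.

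At the highest dose of each, which were not equal, 30 nmol/kg BI 456906 differed from 100 nmol/kg semaglutide in 3 of 37 genes (1 higher, 2 lower, background 4.15% and 5.59%). Acadl was higher with BI 456906 (0.24 ± 0.063, FDR = 0.0107), and Acaa1a (-0.23 ± 0.073, FDR = 0.0416) and Vnn1 (-0.62 ± 0.18, FDR = 0.0216) were lower. In TPM every mouse given BI 456906 was above every mouse given semaglutide for Acadl, while the groups overlapped for Acaa1a and Vnn1. With sample quality weights 8 genes were higher and 5 lower in this comparison, Ehhadh among the higher ones (1.07, FDR = 0.00474). The shares of 4.15% and 5.59% belong to the fit without weights. The share over all genes with weights is not given, so these counts have no background beside them. Ehhadh had 0.75 ± 0.31 (FDR = 0.128), Fabp1 -0.36 ± 0.13 (FDR = 0.061) and Bdh1 -0.33 ± 0.14 (FDR = 0.127), which did not pass. Ppara differed by -0.025, with an interval of -0.57 to 0.52. At an unadjusted limma/voom p below 0.05 this comparison had 4 genes higher and 7 lower. A further unequal pair, BI 456906 at 30 against semaglutide at 20 nmol/kg, had 11 higher and 8 lower by that measure. These unadjusted counts have no share over all genes beside them.

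**Figure D3:**
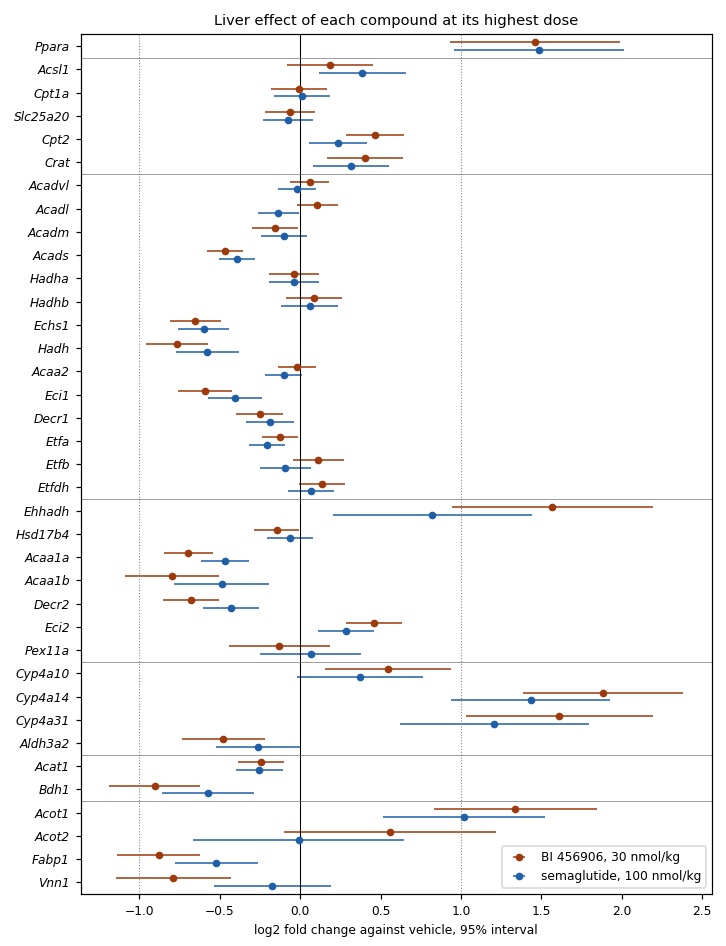
Log2 fold change against vehicle (point) and 95% interval (line) of the 37 genes in liver, for BI 456906 at 30 nmol/kg and semaglutide at 100 nmol/kg, 6 mice per group. Dotted lines mark a change of 1. The pairs of points lie on the same side of 0 for all called genes, with the widest gaps for Ehhadh, Vnn1 and Acot2.

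Other genes of these pathways, a fixed list of 121 with 118 tested in liver, also moved both ways. This list too was chosen with earlier results of these data known. At 30 nmol/kg BI 456906 26 were higher and 49 lower, and 8 and 16 of them by 1 or more on the log2 scale. Among all genes 28.9% were higher and 29.9% lower, and 5.99% and 6.9% by 1 or more. The list's median was -0.17, beside -0.034 for all genes. Of the 32 cofactors and further targets of PPARalpha that were tested 12 were higher and 8 lower (background 28.9% and 29.9%). They included the coactivators Ppargc1a (1.92, FDR = 2.46e-13) and Ppargc1b (1.33, FDR = 5.26e-08), the phosphatidate phosphatases Lpin1 (3.19, FDR = 2.56e-07) and Lpin2 (1.19, FDR = 2.43e-07) and the lipid droplet protein Plin5 (1.47, FDR = 1.29e-07), all higher. The related receptor Pparg (-2.71, FDR = 2.71e-09) and Cidec, a lipid droplet protein (-1.52, FDR = 0.00717), were lower. The lipid transfer protein Pltp (-1.85, FDR = 4.32e-07), the desaturase Scd1 (-1.36, FDR = 0.00064) and the bile acid enzyme Cyp8b1 (-1.32, FDR = 5.95e-10) were lower too. Angptl4, a secreted inhibitor of lipoprotein lipase, rose by 0.64 (FDR = 5.19e-05) and the hormone Fgf21 by 0.63 (FDR = 0.0221), while Pdk4, a kinase that spares glucose, had 0.45 (FDR = 0.282).

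Of the 38 further peroxisomal genes 6 were higher and 14 lower (background 28.9% and 29.9%). The hydrolase Nudt7 (-1.11, FDR = 4.79e-06) was lower, and Hao2, with a mean of 0.925 TPM or less in every group, was lower at 30 nmol/kg BI 456906 (-2.52, FDR = 0.00864) and with both semaglutide doses. In the mitochondrial list of 25 tested, 4 were higher and 14 lower (same background), with the carnitine transporter Slc22a5 (1.09, FDR = 4.96e-06) and Acsl4 (1.05, FDR = 5.57e-07) rising and Acad12 (-1.95, FDR = 5.95e-10) and Acat2 (-1.38, FDR = 2.31e-09) falling. Of the 7 fatty acid uptake genes tested 6 were lower (background 29.9%). Fabp4 of this list and Cidec above are also among the 8 adipocyte markers, and their part was not tested. The genes that fell included Cd36 at -1.82 (FDR = 1.45e-06), Fabp2 at -1.54 (FDR = 1.16e-12) and Fabp5 at -1.96 (FDR = 8.97e-05). The omega-hydroxylase Cyp4a12a went against its relatives, with a mean of 54.2 TPM in vehicle and 4.62 TPM at 30 nmol/kg BI 456906 (-4.37, FDR = 1.19e-06), and 32.4 TPM with semaglutide at 100 nmol/kg (-1.0, FDR = 0.0631).

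In eWAT calls at the highest dose of BI 456906 were about as frequent as among all genes. Of 36 genes 2 were higher and 6 lower at 30 nmol/kg, while 10.9% of all 18536 genes were higher and 13% lower. Acot1 (0.66 ± 0.24, FDR = 0.041) and Acot2 (0.29 ± 0.097, FDR = 0.0286) were the ones that rose. Fabp1 (-4.43 ± 1.47, FDR = 0.0262), Bdh1 (-2.45 ± 0.65, FDR = 0.00591) and Acaa1b (-1.54 ± 0.31, FDR = 0.000517) fell by more than 1 on the log2 scale, and Decr2, Pex11a and Aldh3a2 by less. The lowest, median and highest levels of Fabp1 were 5.16, 281 and 944 TPM in vehicle and 1.29, 9.65 and 97.6 TPM at 30 nmol/kg, those of Bdh1 0.680, 5.83 and 17.5 TPM and 0.620, 1.24 and 2.12 TPM, and those of Acaa1b 112, 184 and 278 TPM and 41.5, 68.5 and 117 TPM. All 3 genes overlapped between the groups in TPM. With semaglutide at 100 nmol/kg 0 of 36 were higher by limma/voom (1 at an unadjusted p below 0.05, none by edgeR or DESeq2) and 15 were lower (background 5.48% higher and 9.42% lower), among them Ppara (-1.05 ± 0.37, FDR = 0.0478), Ehhadh (-1.11 ± 0.28, FDR = 0.00596), Acaa1b (-1.92 ± 0.31, FDR = 6.65e-05), Bdh1 (-2.56 ± 0.66, FDR = 0.0076) and Fabp1 (-4.17 ± 1.41, FDR = 0.041). The mean Ppara level was 3.60 ± 1.96 TPM (SD, n = 6) in vehicle and 1.91 ± 0.792 TPM (SD, n = 6) with semaglutide at 100 nmol/kg, and the lowest, median and highest Ehhadh levels were 24.2, 29.1 and 48.4 TPM and 8.05, 16.3 and 21.9 TPM.

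Some of these eWAT values, those of Fabp1 and Bdh1 in vehicle, followed transcripts of hepatocytes. Alb, the albumin gene, was at 9.87 TPM in 1 vehicle eWAT library and between 458 and 3680 TPM in the other 5, and at 12.1 to 548 TPM at 30 nmol/kg BI 456906. The 10 hepatocyte markers summed to a lowest, median and highest value of 1358, 4275 and 10880.5 TPM in vehicle, 1417, 1577 and 3159 TPM at 30 nmol/kg BI 456906, and 983, 1718 and 3114 TPM with semaglutide at 100 nmol/kg. Transferrin (Trf), 1 of the 10, was at 1317 TPM or more in every vehicle eWAT library, and none of the 10 was at 0 in vehicle. Of the 10, 4 were called lower at 30 nmol/kg BI 456906. The 6 vehicle libraries ranged from 5.16 to 944 TPM for Fabp1 and from 0.68 to 17.5 TPM for Bdh1, and both genes ranked them in the order of the hepatocyte sum. The other members, Acaa1b, Ehhadh and Ppara among them, did not rank the vehicle libraries in that order. What part hepatocyte transcripts had in the eWAT changes was not tested. Cyp4a10, at 0.510, 20.3 and 54.5 TPM (lowest, median and highest) in vehicle, had its lowest and highest values in the same libraries as Fabp1.

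**Figure D4:**
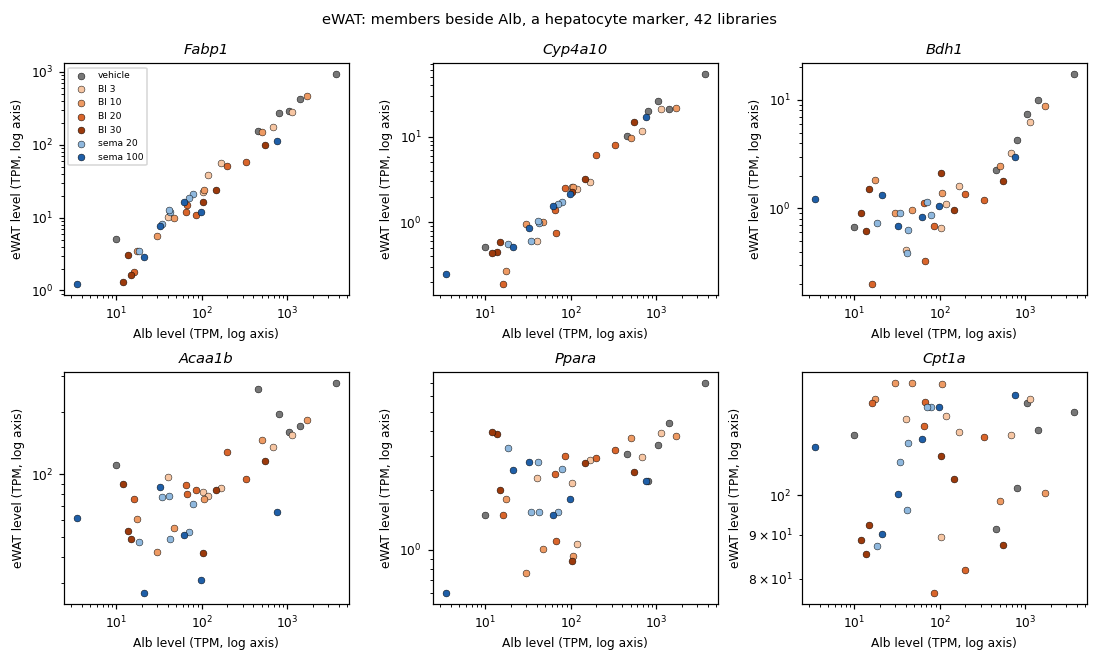
Level in eWAT of 6 genes (TPM, log axis) beside that of Alb (TPM, log axis) in the 42 libraries, colored by group with doses in nmol/kg. Over the 42 libraries Fabp1 and Cyp4a10 climb with Alb, from 1.22 to 944 TPM for Fabp1, whereas Cpt1a does not. Bdh1 is highest in the library with the highest Alb, but does not climb with Alb within every group. With semaglutide at 100 nmol/kg Bdh1 was at 1.22, 1.32 and 1.06 TPM where Alb was at 3.47, 21.5 and 99.4 TPM.

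With the summed hepatocyte marker level of each library as a covariate, an alternative chosen after seeing the data, the eWAT calls changed. This sum includes Trf, which was high in every vehicle library, and did not always follow Alb. In semaglutide 100 nmol/kg library 39 the sum was 2237 TPM with Alb at 21.5 TPM. In library 37 of that group it was 1627 TPM with Alb at 61.6 TPM. How far the covariate tracks hepatocyte transcripts was not tested. Semaglutide at 100 nmol/kg then had 1 gene lower in place of 15 and 1 higher (backgrounds of 5.06% lower and 4.37% higher), and BI 456906 at 30 nmol/kg had 9 higher and 4 lower (backgrounds of 16.4% higher and 20.4% lower). At 30 nmol/kg Fabp1 had -1.48 (FDR = 0.135), Bdh1 -0.79 (FDR = 0.0823) and Ppara 0.45 (FDR = 0.0505), while Acaa1b stayed lower (-0.98, FDR = 0.00632) and Acot1 stayed higher (1.01, FDR = 0.00142). The genes higher in that fit were Acadvl (0.45, FDR = 0.00374), Acat1, Acot1, Acot2, Echs1 (0.64, FDR = 0.00705), Eci1 (0.69, FDR = 0.00873), Eci2, Etfa and Etfb, and Cpt1a was lower (-0.45, FDR = 0.0124). The covariate and the groups are partly confounded, since 5 of the 6 vehicle libraries had hepatocyte sums of 3325 TPM or more. Of 6 brown or beige adipocyte markers 2 were called higher in eWAT at 30 nmol/kg, the sum over 6 genes having a median of 84.8 TPM in vehicle and 138 TPM at that dose, and their part in these values was not tested.

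The effect of 30 nmol/kg BI 456906 differed between liver and eWAT for 14 of the 36 genes tested in both, 6 being higher in liver (background 20.6%) and 8 lower in liver (background 25.3%). Of the 14 genes called lower in liver, 7 were on the lower side, 2 (Bdh1 and Fabp1) on the higher side and 5 had no called difference. The lower side included a difference of the log2 fold changes of -1.10 (FDR = 2.02e-05) for Echs1, -1.03 (FDR = 0.000302) for Eci1, -0.99 (FDR = 6.34e-05) for Hadh, -0.74 (FDR = 4.58e-10) for Acaa1a and -0.61 (FDR = 6.31e-05) for Acads. In eWAT these 5 had changes of 0.34, 0.33, 0.12, -0.062 and 0.038, none of them called. On the higher side were Ppara at 1.88 (FDR = 0.000796) and Ehhadh at 1.99 (FDR = 9.56e-05), and also Cyp4a14, Cyp4a10, Fabp1 and Bdh1. Of the 10 hepatocyte markers 4 were lower in eWAT in the same contrast, and their part in these differences was not tested. With the covariate the eWAT change at 30 nmol/kg went from -0.53 to 0.45 for Ppara, from -0.53 to 0.060 for Ehhadh and from -1.96 to 0.76 for Cyp4a14, none of them called. Ppara was at 1.5 TPM in the vehicle library with the lowest hepatocyte sum and at 7.05 TPM in that with the highest.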

How the data were processed

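Liver and eWAT RNA of 84 libraries was analysed from tables deposited by the authors. One table holds read counts per gene divided by 1 size factor per library, a scaled signal from which whole reads were recovered for all values within a tolerance of 0.1. The other holds TPM as deposited by the authors. Per the labels' processing notes the tools were STAR 2.5.2b, RSEM 1.3.0, featureCounts 1.5.1 and FastQC 0.11.5, on mm10 (GRCm38). The labels describe a SMART-Seq v4 kit with single reads and the study's methods a directional poly(A) kit with paired reads, which could change how overlapping genes were counted.

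Groups came from the treatment given in the labels. Each tissue was fitted once with limma/voom (limma 3.58.1, edgeR 4.0.16 for TMM and filterByExpr, R 4.3.3), with 7 group means, a pseudocount of 0.5 and Benjamini-Hochberg FDR over the 15964 genes tested in liver and 18536 in eWAT. The tissue difference used one fit of 84 libraries and 15297 genes, which took all libraries as independent. Whether liver and eWAT libraries share mice is not given in the labels, so these FDRs ignore any such pairing. Because the deposited table was scaled and not raw counts, edgeR (quasi-likelihood) and DESeq2 1.42.0 served as alternatives on the recovered reads. In simulated data for BI 456906 30 nmol/kg against vehicle, 200 of 200 changed genes were recovered in each tissue, with 7 false calls among 20183 genes in liver and 16 among 23394 in eWAT. The size of those 200 changes is not given here, so the recovery of smaller changes was not tested. That run also had more genes than the 15964 and 18536 tested above. Whether the 6 libraries of a group came from separate mice is taken from the study's design, and p-values measure the spread between them.

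The members and lists were chosen with earlier results of these data known. Full values are given for members with an absolute log2 fold change of at least 1 at an FDR of at most 0.05, and for Ppara, Cpt1a, Acat1 and Bdh1. Other pathway genes are named if past the same threshold in liver or if they are among a few fixed genes such as Pdk4, Angptl4, Ppargc1a and Fgf21, and some genes of the lists are not reported here. Transcripts of near-identical genes were aligned with blastn 2.17.0, and promoters were taken from RefSeq (GRCm38.p6). Alternatives covered the scaling, the filter, the test, sample weights, the groups fitted and single libraries left out.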

Additional observations from a re-analysis of the deposited data

Results flagged for a closer look

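Of 71 groups of 6 libraries examined for a single distant value in the named genes, 5 had one, and chance gives about 1 in 20. In liver, Ehhadh was at 423 TPM in vehicle library 47, the highest of its group, and Acat1 was at 217 TPM in semaglutide 100 nmol/kg library 81, the lowest of its group. In eWAT, Fabp1 was at 97.6 TPM in library 27 of BI 456906 30 nmol/kg, and in library 42 of semaglutide 100 nmol/kg Fabp1 was at 111 TPM and Bdh1 at 2.99 TPM, each the highest of its group. Library 27 also had the highest Alb of its group, 548 TPM.

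The effect of BI 456906 at 30 nmol/kg differed between the tissues for 14 genes by the interaction test of limma/voom (FDR of at most 0.05). The log2 fold change was higher in liver than in eWAT by 1.88 (FDR = 0.000796) for Ppara, 1.99 (FDR = 9.56e-05) for Ehhadh, 3.42 (FDR = 0.00447) for Cyp4a10, 3.74 (FDR = 0.00491) for Cyp4a14, 1.44 (FDR = 0.0327) for Bdh1 and 3.45 (FDR = 0.0321) for Fabp1. The difference, liver minus eWAT, was -0.74 (FDR = 4.58e-10) for Acaa1a, -0.61 (FDR = 6.31e-05) for Acads, -0.42 (FDR = 0.00296) for Decr2, -1.10 (FDR = 2.02e-05) for Echs1, -1.03 (FDR = 0.000302) for Eci1, -0.39 (FDR = 0.0428) for Etfa, -0.99 (FDR = 6.34e-05) for Hadh and -0.25 (FDR = 0.0455) for Slc25a20. The hepatocyte markers moved in eWAT with the same contrast, and their part in these differences was not tested.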

How the results depend on the processing

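No paired analysis was possible because the library numbers do not repeat between groups or tissues. The labels do not say which liver and eWAT libraries came from the same mouse. Of 776 values under alternatives 712 kept their side of the threshold or stayed within 1.5 times, 60 counts moved and 4 single-gene calls were lost, the cause of which was not tested. Single-gene values were followed for 8 named genes in liver at BI 456906 30 and semaglutide 100 nmol/kg alone, and no called change of these reversed. Cpt1a, never called, changed sign between settings, ranging from -0.070 to 0.075 at BI 456906 30 and from -0.054 to 0.085 at semaglutide 100. The calls lost among the 8 genes were of Ehhadh at semaglutide 100 nmol/kg. Its change was 0.84 without a filter, 0.84 with only the groups compared in the fit, and 0.53 and 0.64 without libraries 81 and 82. Counts are given as higher and lower members in liver unless eWAT is named, here without the share over all genes under each alternative. Requiring a log2 fold change of at least 1 left 0 and 0 at BI 456906 3 nmol/kg, 1 and 0 at 10, 4 and 0 at 20, 5 and 0 at 30, 2 and 0 at semaglutide 20, 4 and 0 at semaglutide 100, 0 and 0 for BI 456906 30 against semaglutide 100, 0 and 3 in eWAT at 30 and 5 lower in eWAT with semaglutide 100. With sample quality weights the higher counts were 2 at 3 nmol/kg, 4 at 10, 15 at 30, 7 in eWAT at 30 and 12 for the eWAT slope, and BI 456906 30 against semaglutide 100 had 8 and 5. With library size alone there were 4 higher at 10, 19 lower at 20, 2 and 4 for 30 against semaglutide 100 and 8 higher for the eWAT slope. On log2(TPM + 1) there were 4 higher at 10, 1 higher for BI 456906 20 against semaglutide 20, 3 and 4 for 30 against semaglutide 100, 1 higher in eWAT at 30 and 2 higher for the eWAT slope. On log2(TPM + 0.1) there were 4 higher at 10, 1 for 20 against 20, 3 for 30 against semaglutide 100 and 2 for the eWAT slope. DESeq2 gave 4 higher at 10, 4 lower for 30 against semaglutide 100 and 1 higher in eWAT at 30, where edgeR also gave 1. Without a filter there were 2 lower at 3 and 1 higher in eWAT at 30. With only the groups compared there were 0 and 0 at 3, 5 higher at 10, 1 and 3 in eWAT at 30 and 3 lower in eWAT with semaglutide 100. The eWAT slope had 8 and 2 without vehicle and 1 higher over group rank. With the hepatocyte covariate, added after seeing the data, eWAT log2 fold changes turned sign for 10 genes at 30 and 11 with semaglutide 100, none of them called in that fit, Fabp1 and Bdh1 were no longer called at 30, and eWAT had 9 higher at 30, 1 and 1 with semaglutide 100 and 14 higher for the slope. Leaving out single libraries gave 8 to 10 higher and 13 to 15 lower at 30, 5 to 10 higher and 11 to 13 lower with semaglutide 100, and 1 to 2 lower for 30 against semaglutide 100, where library 70 of BI 456906 30 made the difference. Not every library of the other groups was left out in turn. The least deep liver library held 21676902 reads.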
